A study of Rattus norvegicus with 12 samples.

Results

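Vitamin A reaches the brain as retinol, which is carried in blood by RBP4 and transthyretin, oxidised to retinaldehyde by retinol dehydrogenases and then to retinoic acid by the retinaldehyde dehydrogenases ALDH1A1, ALDH1A2 and ALDH1A3. Retinoic acid binds the nuclear receptors RARA, RARB and RARG, each of which pairs on DNA with a retinoid X receptor (RXRA, RXRB or RXRG). In the striatum RARB and RXRG are the receptors known from projection neurons, and ALDH1A1 is known from the axons of a subset of midbrain dopamine neurons. The genes described here are these 6 receptors, the 2 dehydrogenases Aldh1a1 and Aldh1a2, and Crabp1, which encodes a protein that binds retinoic acid in the cytoplasm.

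Of the 9 genes, 7 were found among the 35608 genes of the array by the gene name in the scanner files, with 9 probes. Rarg and Crabp1 carry other names there and were found by the description of the probe, which gave 11 probes in all. A probe was called above background where the scanner software marked it so, and 9 of the 11 probes were above background on all 12 arrays. The probe of Rara passed on 4 arrays and that of Aldh1a2 on 1 array, so both failed the filter, which required 5 arrays, and 7 of the 9 genes entered the test.

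The arrays came from the dorsal striatum of 12 male rats, 1 single-colour array per rat and 3 rats per group, with strain and age not given in the sources used here. Every rat, controls included, had received 9 µg of 6-hydroxydopamine (6-OHDA, a toxin taken up by dopamine neurons) in 4.5 µL on one side of the brain, and rats were kept only if mazindol binding, a measure of dopamine terminals, had fallen by at least 85%. The 6-OHDA group had no other treatment. The HFS group had high-frequency stimulation of the subthalamic nucleus for 5 days from day 28 (130 Hz, 80 µs pulses, 60 µA). In the DOPA group, L-DOPA at 25 mg/kg with benserazide at 12.5 mg/kg, which keeps L-DOPA from being used up outside the brain, was injected 2 times per day for 19 days from day 14. The DOPA/HFS group had both, with stimulation in the last 5 days. For these arrays the methods describe an electrode, implanted under a further anaesthesia on day 14, in the HFS and DOPA/HFS groups only. Implantation and stimulation therefore cannot be told apart. All were killed 33 days after the lesion, right after the stimulator was turned off or 12 h after the last L-DOPA injection. There was no group without the lesion on these arrays, so no value below says what the lesion did.

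All 12 genes of the marker list for striatal projection neurons were above background on all arrays, and the summed level of the list on the log2 scale lay between 18.05 and 18.52. In the list for dopamine neurons, with 9 of 10 genes on the array, 3 to 7 were above background on any one array. Slc6a3, which encodes the dopamine transporter, and Foxa1 were above background on no array, Ddc and Nr4a2 on all 12, Slc18a2 on 11 and Th, which encodes tyrosine hydroxylase, on 10. The share of spots above background was 53.8 to 58.9% in the 6-OHDA group, 50.5 to 58% in the DOPA group, 60.3 to 63.2% in the HFS group and 60 to 62.8% in the DOPA/HFS group. DOPA/HFS replicate 3 had 4175 spots marked as outliers, which were left out, against 2 to 25 on the other 11 arrays. Taking arrays with the same scan date as 1 slide, each slide held 1 array of each group, always in the same place for a group, so place and treatment cannot be told apart. In these tissue punches, fewer cells of a type and less RNA per cell cannot be told apart either.

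RAR and RXR bind as a pair to direct repeats of a core hexamer, classically with a spacer of 5 bases (DR5). The RefSeq promoter windows of the rat assembly GRCr8, which run from 250 bases before to 50 bases after a gene start, were searched on both strands for the consensus hexamer AGGTCA and for the variants AGTTCA (held by both elements printed here), also GGGTCA and, as in the Rarb element, GGTTCA. Overlapping matches were counted. Among 10 windows of the 9 genes (Rarg has 2), the one of Rarb held a DR5 repeat, and so did that of Cyp26a1, which encodes an enzyme that breaks retinoic acid down and was the only other gene of the retinoid lists with such a repeat. These 2 elements are shown because they were the only exact repeats found in the windows of the genes listed here. The hexamers are in capitals, with 6 flanking bases on either side. Sites outside the windows or with other hexamers were not searched, and binding was not measured. A DR5 repeat was present in 0.382% of all 33469 windows, and repeats with a spacer of 1 or 2 bases were in 0.233% and 0.17% of them and in no window of the 9 genes.
Rarb, chr15:11336416-11336432, 25 to 41 bases after the start, on the strand of the gene: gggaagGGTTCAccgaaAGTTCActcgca
Cyp26a1, chr1:244883730-244883746, from 92 to 76 bases before the start, read on the opposite strand: caaattAGTTCAcccaaAGTTCAtcttta

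Values are log2 signals after quantile normalization, and they are compared between arrays for 1 probe at a time. Aldh1a1 was the one gene of the set whose HFS and DOPA arrays lay on opposite sides of the 6-OHDA arrays. On the 6-OHDA arrays its log2 signal was 7.78, 7.80 and 7.94. HFS arrays gave 7.75, 7.70 and 7.72, and DOPA arrays gave 8.28, 8.08 and 8.27. The 3 HFS arrays thus lay just below and the 3 DOPA arrays above all 6-OHDA arrays. On the DOPA/HFS arrays the signal was 6.97, 8.25 and 7.61, a spread wider than that between the means of the other groups.

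The log2 fold change of Aldh1a1 was 0.37 in the DOPA group (SE 0.25, 95% interval -0.19 to 0.93, limma adjusted p = 1) and -0.12 in the HFS group (SE 0.25, interval -0.68 to 0.44, limma adjusted p = 0.998). In an exact two-sided permutation test each gave p = 0.1, the smallest that 3 arrays against 3 allow. Within the 3 slides the DOPA array was higher than the 6-OHDA array by 0.5, 0.28 and 0.34, and the HFS array differed from it by -0.04, -0.11 and -0.22. The DOPA/HFS group differed from 6-OHDA by -0.23 (SE 0.25, limma adjusted p = 1), and by 0.09 without DOPA/HFS replicate 1. Set directly against each other, a comparison added after these values had been seen, DOPA exceeded HFS by 0.49 (SE 0.25, interval -0.07 to 1.05, limma unadjusted p = 0.0788, adjusted p = 0.984, exact p = 0.1). Averaged over both L-DOPA conditions, stimulated rats differed from the others by -0.36 (SE 0.18, interval -0.75 to 0.03, exact permutation p = 0.0714 for 6 arrays against 6, limma adjusted p = 0.911). None of these passed the test. Aldh1a1 stands on the list of L-DOPA genes that the study drew from these same arrays, so that list is not independent evidence of its direction.

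Among all genes tested, 18 (0.088%) had every HFS array below and every DOPA array above all 6-OHDA arrays, as Aldh1a1 did, and 29 (0.142%) had HFS and DOPA on opposite sides in either order. The same pattern could thus be found in other genes of the table, and it was selected for description after the values were known.

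Aldh1a2, the dehydrogenase that makes most retinoic acid in the embryo and is known from the meninges in the adult brain, was near or below background. Its log2 signal was 4.78, 3.96 and 3.71 in the 6-OHDA group, 3.17, 4.44 and 3.06 in the HFS group, 4.31, 3.91 and 4.13 in the DOPA group, and 3.12, 5.91 and 3.68 in the DOPA/HFS group. Only DOPA/HFS replicate 2, at 5.91, was above background, and no fold is given, since the 6-OHDA arrays hold only a detection bound and no treated mean exceeded it. The marker list of leptomeninges and perivascular fibroblasts, with 10 of 13 genes on the array, had a summed log2 level of 12.55 to 13.54 in the DOPA/HFS group, 13.31 to 13.98 with HFS alone, 13.04 to 13.20 in the DOPA group and 12.94 to 13.28 in the 6-OHDA group. By replicate the DOPA/HFS sums were 12.55, 13.54 and 12.99, so the highest of that group was on the array that detected Aldh1a2. Igf2, the brightest gene of the list on the HFS arrays, was at 13.44, 12.45 and 13.10 there, so it makes up much of their sum. On the DOPA/HFS arrays Igf2 was at 11.28, 12.06 and 11.53. Other genes of the list went both ways in HFS. Against 6-OHDA, the group mean was lower for Col1a1 (8.76 against 9.19) and Col3a1 (8.08 against 8.72). For Ogn (8.16 against 7.62) and Mgp (11.3 against 11.02) it was higher. The part of these cells in the single high value of Aldh1a2 was not tested.

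Crabp1, the cytoplasmic binding protein, was measured on all arrays. Its signals were 9.75, 9.81 and 10.25 in the 6-OHDA group, 10.01, 9.85 and 10.10 in the HFS group, 9.85, 9.71 and 10.03 in the DOPA group, and 10.02, 9.65 and 9.78 in the DOPA/HFS group. The 4 groups overlapped. The log2 fold changes of 0.05, -0.08 and -0.12 were smaller than their SE of 0.17, with 95% intervals of -0.33 to 0.43, -0.45 to 0.30 and -0.50 to 0.26.

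Rara is known to be expressed in many tissues. Here its probe was dim, with log2 signals of 4.67, 4.16 and 4.86 in the 6-OHDA group and 4.56, 4.97 and 4.10 in the DOPA group, none of them above background. It was above background on 2 of 3 HFS arrays (4.90, 4.83 and 4.99 in order of replicate, the first below background) and on 2 of 3 DOPA/HFS arrays (4.99, 6.12 and 4.74, the last below background). The 4 arrays that detected it were therefore all from stimulated rats. The 6-OHDA and DOPA arrays hold only a detection bound, and no fold change or test is given for Rara. Of the DOPA/HFS values only 6.12, on replicate 2, exceeded the mean bound of 5.03 on the 6-OHDA arrays. Through it the DOPA/HFS mean of 5.28 lay above the bound, and the HFS mean of 4.91 was below it. The lowest signal marked above background was 4.03 to 4.45 on HFS, 3.6 to 4.22 on DOPA/HFS, 4.61 to 5.3 on 6-OHDA and 4.71 to 5.71 on DOPA arrays. Thus 4.83 counted as detected on HFS replicate 2, while 4.97 on DOPA replicate 2 did not. The share of spots above background was higher in the same groups, by the values given above, and its part in the detection of Rara was not tested.

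Rarb, whose promoter holds the DR5 repeat shown above, is both a receptor and a classical target of retinoic acid. The brighter of its 2 probes, listed under XM_223843, had log2 signals of 9.78, 9.43 and 9.93 in the 6-OHDA group, 9.71, 9.89 and 9.81 in the HFS group, 9.57, 9.84 and 9.55 in the DOPA group, and 10.13, 9.79 and 9.82 in the DOPA/HFS group. All treated groups overlapped with 6-OHDA. The log2 fold changes were 0.09, -0.06 and 0.20 (SE 0.17 each), and the last of them had a 95% interval of -0.17 to 0.57.

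The dimmer probe of Rarb, listed under XM_001059523, gave 7.27, 7.47 and 6.85 in the 6-OHDA group, 7.34, 7.06 and 7.01 in the HFS group, 6.97, 7.02 and 7.01 in the DOPA group, and 6.68, 7.22 and 6.75 in the DOPA/HFS group. Its log2 fold changes of -0.06, -0.20 and -0.32 (SE 0.19 each) also lay within the spread between arrays. In the DOPA/HFS group the probes thus pointed in opposite directions, 0.20 against -0.32, and no direction is given for Rarb there. Across the 12 arrays the 2 probes were negatively correlated, with a Pearson r of -0.651 (permutation p = 0.021, adjusted over the 2 probe pairs 0.021) and a Spearman rho of -0.587 (permutation p = 0.0505, adjusted 0.0505). Without the 2 arrays farthest from the median of the brighter probe, 6-OHDA replicate 2 and DOPA/HFS replicate 1, r was -0.183, so the relation rests on those arrays. The sequences of the probes were not used here.

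**Figure D1:**
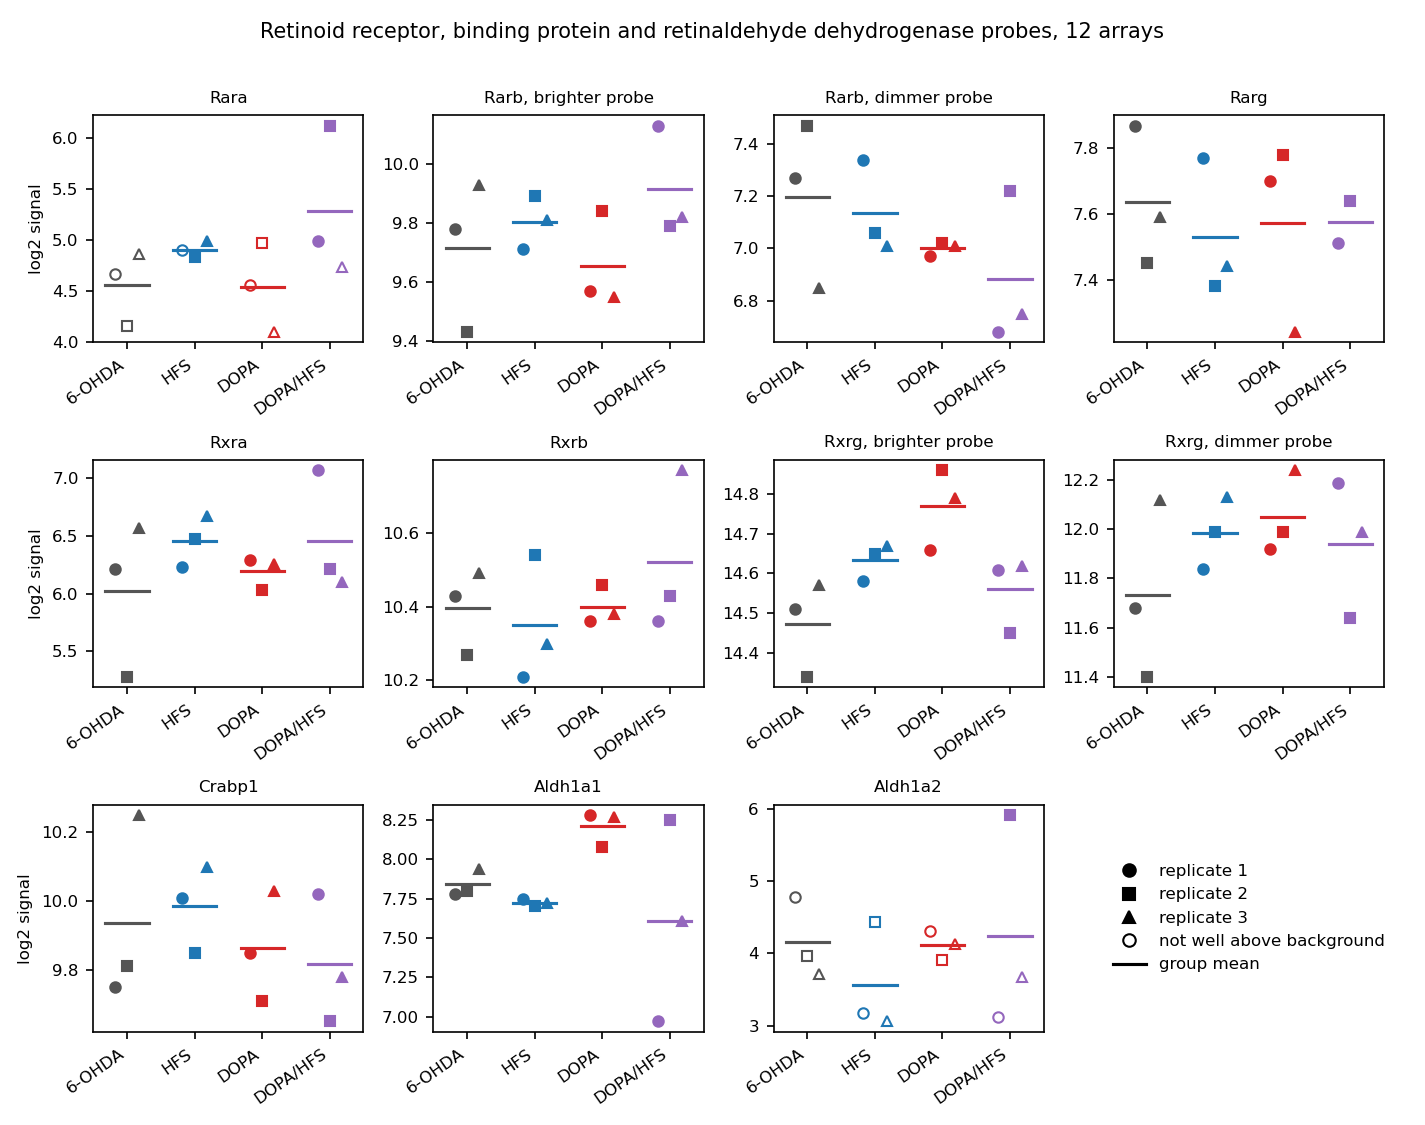
Log2 signal (vertical axes, each with its own range) of the 11 probes of the 9 retinoid genes on 12 arrays, 3 per group, with the control group on the left. Marks give the replicates, open marks probes not above background and lines group means; the Aldh1a1 panel shows DOPA arrays from 8.08 to 8.28 over 6-OHDA arrays from 7.78 to 7.94, and in the other panels most groups overlap.

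Rarg was measured on 11 arrays, because the spot on DOPA/HFS replicate 3 was marked as an outlier. Signals of its probe were 7.87, 7.45 and 7.59 in the 6-OHDA group, 7.77, 7.38 and 7.44 in the HFS group, 7.70, 7.78 and 7.24 in the DOPA group, and 7.51 and 7.64 on the first 2 DOPA/HFS arrays. The fold changes of -0.11, -0.07 and -0.06 on the log2 scale (SE 0.19, 0.19 and 0.21) were within the spread, and the fit of the last rests on 2 arrays. With the outlier spot kept, at 9.62, that value became 0.60.

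Rxra is a broadly expressed partner of many nuclear receptors. Its log2 signal was 6.21, 5.28 and 6.57 in the 6-OHDA group, 6.23, 6.47 and 6.67 in the HFS group, 6.29, 6.03 and 6.26 in the DOPA group, and 7.07, 6.21 and 6.10 in the DOPA/HFS group. The value of 5.28 on 6-OHDA replicate 2 was the lowest of the 12. The log2 fold changes were 0.44, 0.17 and 0.44 (SE 0.33 each, limma adjusted p = 0.998, 1 and 1). Without 6-OHDA replicate 2 they were 0.07, -0.20 and 0.07, so their size rested on that array, and no direction is given for Rxra.

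The same control array also held the lowest of the 3 control values for other genes of the set. Of the 9 probes above background, 6 had their lowest 6-OHDA signal on replicate 2, which touches every fold change against 6-OHDA given for them.

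Rxrb, the RXR gene that lies in the major histocompatibility complex, overlapped between all groups. Signals on the log2 scale were 10.43, 10.27 and 10.49 in the 6-OHDA group, 10.21, 10.54 and 10.30 in the HFS group, 10.36, 10.46 and 10.38 in the DOPA group, and 10.36, 10.43 and 10.77 in the DOPA/HFS group. The log2 fold changes were -0.05, 0 and 0.12 (SE 0.15 each), with 95% intervals of -0.38 to 0.29, -0.33 to 0.34 and -0.21 to 0.45.

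Rxrg, the RXR gene typical of striatal projection neurons, had its brighter probe at 14.51, 14.34 and 14.57 on the 6-OHDA arrays. The signal was 14.58, 14.65 and 14.67 in the HFS group, 14.66, 14.86 and 14.79 in the DOPA group, and 14.61, 14.45 and 14.62 in the DOPA/HFS group. Each HFS and each DOPA array was higher than all 6-OHDA arrays, while the DOPA/HFS arrays overlapped with them. Within the slides the differences from the 6-OHDA array were 0.07, 0.30 and 0.10 for HFS and 0.15, 0.51 and 0.21 for DOPA. For DOPA/HFS they were 0.10, 0.11 and 0.05. All 9 treated arrays thus exceeded the control array of their own slide. The treated arrays of a slide share that control array, so these differences are not independent. In each treatment the largest difference was on the slide of the lowest 6-OHDA array, at 14.34. The share of all genes with every treated array higher within its slide was not counted. HFS and DOPA on the same side of all 6-OHDA arrays were found for 0.816% of all genes. In the DOPA group the log2 fold change was 0.29 (SE 0.13, 95% interval 0.02 to 0.57, limma unadjusted p = 0.0403, adjusted p = 1), which is 1.23-fold, and the exact permutation test gave p = 0.1. The HFS group differed by 0.16 (SE 0.13, interval -0.12 to 0.43) and DOPA/HFS by 0.09 (SE 0.13, interval -0.19 to 0.36). Scaled to the 75th percentile of each array in place of quantile normalization, the HFS value was 0.01.

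The interaction, which asks whether stimulation acted differently with and without L-DOPA, was -0.36 for Rxrg (SE 0.18, interval -0.75 to 0.03, limma unadjusted p = 0.0675, adjusted p = 1). It did not pass the test. Its dimmer probe, which has the same accession, gave 11.68, 11.40 and 12.12 in the 6-OHDA group, 11.84, 11.99 and 12.13 in the HFS group, 11.92, 11.99 and 12.24 in the DOPA group, and 12.19, 11.64 and 11.99 in the DOPA/HFS group. On that probe every group overlapped with 6-OHDA, and the log2 fold changes were 0.25, 0.31 and 0.20 (SE 0.20 each). Its differences within the slides were 0.15, 0.59 and 0 for HFS and 0.24, 0.59 and 0.11 for DOPA. For DOPA/HFS they were 0.5, 0.24 and -0.14, so on this probe the last array lay below its control. The 2 probes of Rxrg were positively correlated over the 12 arrays, with r = 0.773 (permutation p = 0.00321, adjusted 0.00642) and rho = 0.699 (permutation p = 0.0142, adjusted 0.0284), and r was 0.795 without the 2 farthest arrays.

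**Figure D2:**
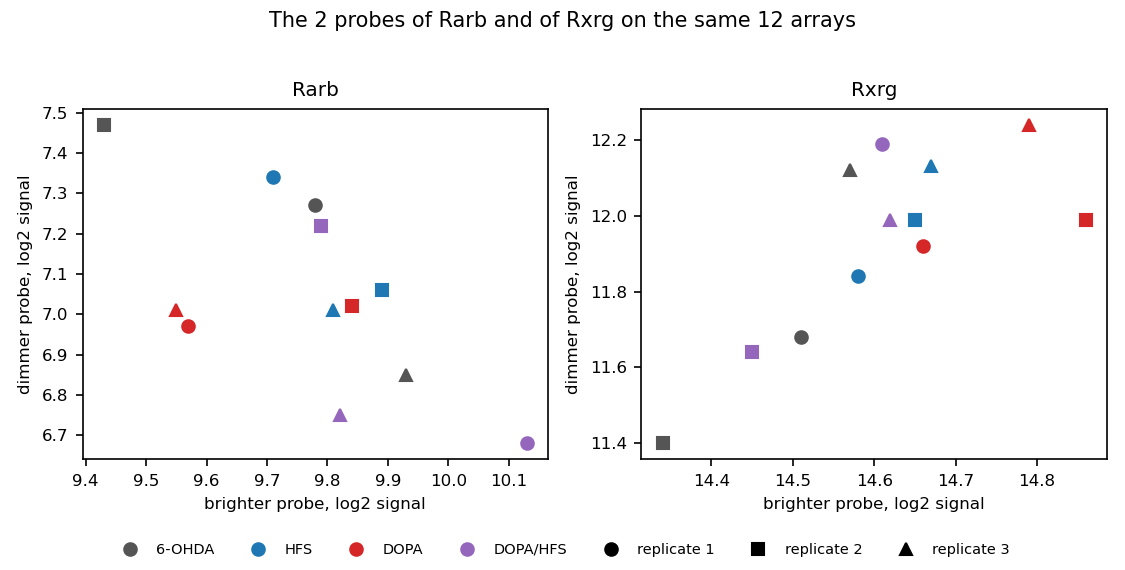
Log2 signal of the dimmer probe (vertical axis) against the brighter probe (horizontal axis) of Rarb and of Rxrg on the same 12 arrays, coloured by group and shaped by replicate. The Rxrg probes rise together (r = 0.773), while the Rarb probes run in opposite directions (r = -0.651), with 6-OHDA replicate 2 and DOPA/HFS replicate 1 at the ends.

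Over the 7 genes tested, no gene was called in any of the treatment groups at a limma adjusted p under 0.1 with a fold over 1.2 or under 0.8. In the whole table of 20462 genes the same rule called 0% for HFS, 0.00489% for DOPA and 0% for the combined treatment, so it called almost nothing anywhere, and 0 of 7 does not set these genes apart. At an unadjusted p under 0.05 the count was 0 of 7 in HFS, 1 of 7 in DOPA (Rxrg) and 0 of 7 in DOPA/HFS, against 2.34%, 2.59% and 2.76% of all genes. The median log2 fold change of the 7 genes was 0.05, 0 and 0.09, and that of all genes 0.01, -0.01 and -0.01.

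Groups that did not overlap with 6-OHDA were found for 2 of the 7 genes in HFS (Rxrg higher, Aldh1a1 lower), for 2 of 7 in DOPA (both higher) and for 0 of 7 in DOPA/HFS. Over all genes these shares were 5.14%, 6.27% and 5.12%. By direction, 2.8% of all genes were higher and 2.34% lower without overlap in HFS, and 3.16% were higher in DOPA. The 3 comparisons share the 6-OHDA arrays, so a low or high value there enters all of them. For the interaction and for the averages over 6 arrays against 6, 0 of 7 genes were called, where the rule called 0% of all genes for the interaction, 0.00489% for L-DOPA and 0% for stimulation.

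**Figure D3:**
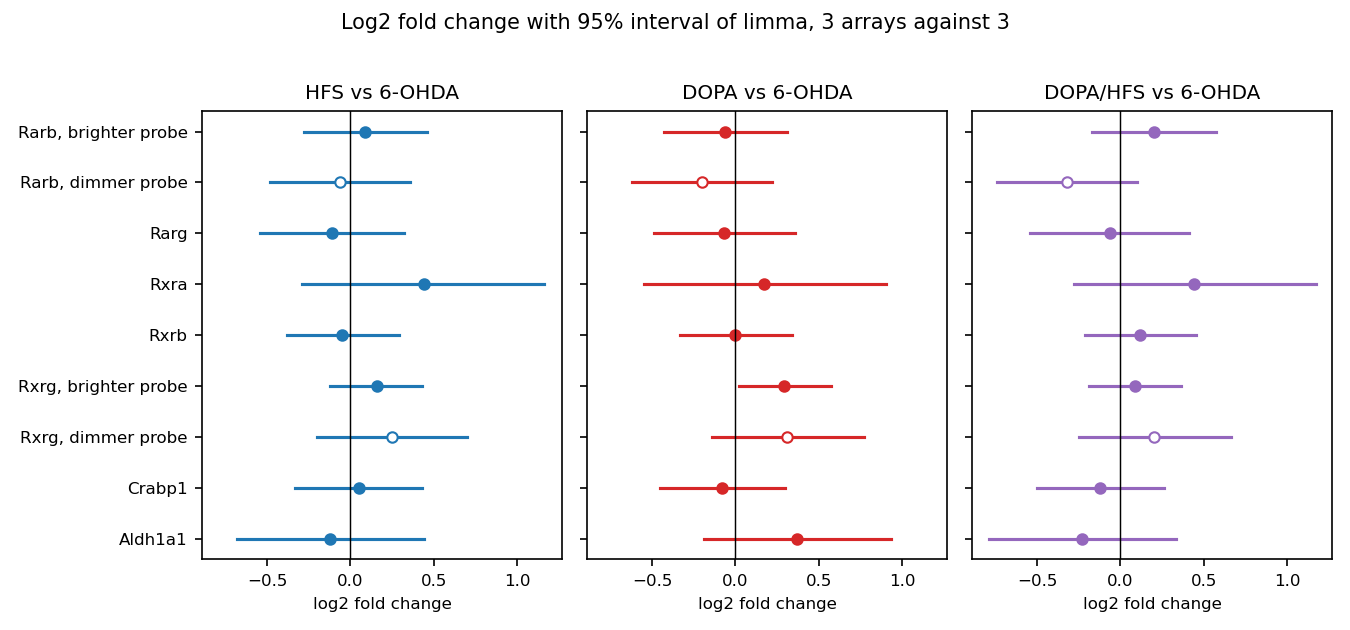
Log2 fold change against 6-OHDA (horizontal axis) with its 95% limma interval for the 7 retinoid genes that passed the filter, with 1 panel per treatment. Filled points are the probes that stood for the gene and open points the second probes of Rarb and Rxrg; apart from the brighter Rxrg probe in DOPA (0.02 to 0.57), every interval includes 0.

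The genes around these receptors were taken from 7 lists for retinol transport, storage, oxidation, retinoic acid breakdown and binding, receptors that pair with RXR, coregulators, and genes known to respond to retinoic acid. Of the 63 genes listed, 38 were tested, 18 had no probe above background on 5 arrays and 7 had no probe of that name. None of the 38 was called in any comparison. At an unadjusted p under 0.05, 2 were higher and 0 lower in HFS, 4 higher and 0 lower in DOPA, and 2 higher and 1 lower in DOPA/HFS, where 2.34%, 2.59% and 2.76% of all genes passed in either direction. The median log2 fold changes of the 38 were 0.01, 0.04 and -0.01. Groups that did not overlap with 6-OHDA, in either direction, were found for 5.14%, 6.27% and 5.12% of all genes. Over the 38 they were not counted, so the separated genes named below are examples. The study's lists for L-DOPA or stimulation, drawn from these arrays, contain Rbp4, Dhrs3, Crabp2, Ttr and Rpe65, so those lists are not independent evidence for these genes. For Ttr the paper also reports a rise under HFS by RT-qPCR in a separate series of rats.

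Among the carriers, Rbp4, the retinol-binding protein of blood, had log2 signals of 13.65, 13.77 and 13.66 in the 6-OHDA group and 14.19, 13.99 and 13.86 in the DOPA group. All DOPA arrays were thus higher, by 0.32 (SE 0.14, limma unadjusted p = 0.0417, adjusted p = 1). The other group given L-DOPA, DOPA/HFS, had 13.59 and 13.77 on the 2 arrays measured and differed by -0.02 (SE 0.15), and HFS by -0.13 (SE 0.14), both overlapping with 6-OHDA. Ttr, transthyretin, was at 6.23, 6.59 and 5.8 in the 6-OHDA group and at 16.30, 11.86 and 15.28 in the HFS group, a log2 fold change of 8.27 (SE 2.51, 95% interval 2.74 to 13.80, limma adjusted p = 0.998). On the DOPA arrays it was 2.41, 10.29 and 13.81, and on the DOPA/HFS arrays 8.28, 9.25 and 2.79.

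Ttr is also the leading gene of the choroid plexus, the tissue that makes cerebrospinal fluid. The choroid plexus marker list, with 11 of 13 genes on the array and Ttr among them, had a summed log2 level of 12.17 to 16.47 in HFS, 8.62 to 9.67 in 6-OHDA, 8.79 to 14.05 in DOPA and 8.27 to 10.14 in DOPA/HFS. The sum mostly repeats Ttr where Ttr is high: on the HFS arrays it was 16.47, 12.17 and 15.48, with Ttr at 16.30, 11.86 and 15.28. On the HFS arrays 9 to 11 genes of the list were above background, against 4 to 5 on the 6-OHDA arrays, and Kl was above background on 2 HFS arrays and on no array of the other groups. The part of these cells in the Ttr signal was not tested.

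In the storage list, Rpe65, an isomerase of the visual cycle, was higher on all 9 treated arrays than on any 6-OHDA array. Taking 1 treatment at a time, 5.14% (HFS), 6.27% (DOPA) and 5.12% (DOPA/HFS) of all genes did not overlap with 6-OHDA in either direction. The share with all treatments higher was not counted. The log2 signal of Rpe65 was 6.27, 6.81 and 6.93 in the 6-OHDA group, 7.63, 7.30 and 7.36 in HFS, 7.07, 7.57 and 7.72 in DOPA, and 7.68, 7.16 and 6.95 in DOPA/HFS. Its lowest treated value, 6.95, lay just over the highest control value, 6.93. The log2 fold changes were 0.76, 0.78 and 0.59 (SE 0.25 each, limma unadjusted p = 0.0109, 0.00914 and 0.0369, adjusted p = 0.998, 1 and 1). The comparisons share the control arrays, and with a normexp background correction the values were 0.46, 0.44 and 0.35. In the log2 table deposited with the series they were 0.49, 0.48 and 0.23. Its interaction was -0.95 (SE 0.35, limma adjusted p = 1).

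Among the oxidoreductases, Rdh10, the main retinol dehydrogenase of the embryo, differed by -0.29, -0.37 and -0.32 (SE 0.19 each) and overlapped with 6-OHDA in each treatment. Dhrs4 was higher on all HFS arrays than on any 6-OHDA array, by 0.17 (SE 0.15, exact permutation p = 0.1). It overlapped with 6-OHDA in DOPA and in DOPA/HFS. Dhrs3, which turns retinaldehyde back to retinol and responds to retinoic acid, was at 10.30, 10.00 and 10.12 in the 6-OHDA group and at 10.63, 10.88 and 10.56 in the DOPA group. Each DOPA array was higher, by 0.55 on average (SE 0.20, 95% interval 0.12 to 0.98, limma unadjusted p = 0.0175, adjusted p = 1). In DOPA/HFS, the other group given L-DOPA, Dhrs3 was at 9.86, 10.50 and 10.60 and overlapped with 6-OHDA, with a difference of 0.18 (SE 0.20, limma adjusted p = 1) and an interaction of -0.50 (SE 0.28, limma adjusted p = 1). Aldh1a3, which is the third retinaldehyde dehydrogenase, and Lrat, which stores retinol as an ester, were above background on no array.

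Crabp2 encodes the binding protein that hands retinoic acid to RAR. Its log2 signal was 10.87, 11.09 and 10.98 in the 6-OHDA group, 11.44, 10.86 and 10.71 in HFS, 11.34, 11.96 and 11.34 in DOPA, and 11.03, 11.97 and 11.73 in DOPA/HFS. All DOPA arrays were above all 6-OHDA arrays, and over 6 arrays against 6 the rats given L-DOPA exceeded the others by 0.57 (SE 0.20, exact permutation p = 0.0195, limma adjusted p = 1). Fabp5, a second retinoic acid carrier, was at 15.35, 15.62 and 15.29 in the 6-OHDA group and at 14.57, 15.16 and 15.04 in the DOPA/HFS group. Each DOPA/HFS array was lower, with a log2 fold change of -0.50 (SE 0.19, limma unadjusted p = 0.0247, adjusted p = 1), and of -0.33 without DOPA/HFS replicate 1. Cyp26a1, the other gene with a DR5 repeat in its promoter window, was dim and between 4.86 and 6.65 on all arrays. In the 6-OHDA group it was at 5.82, 5.29 and 5.39, with 1 of 3 arrays above background. Its log2 fold changes of -0.05, -0.02 and 0.56 (SE 0.38 each) rest on signals near background, and each treated group overlapped with 6-OHDA.

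**Figure D4:**
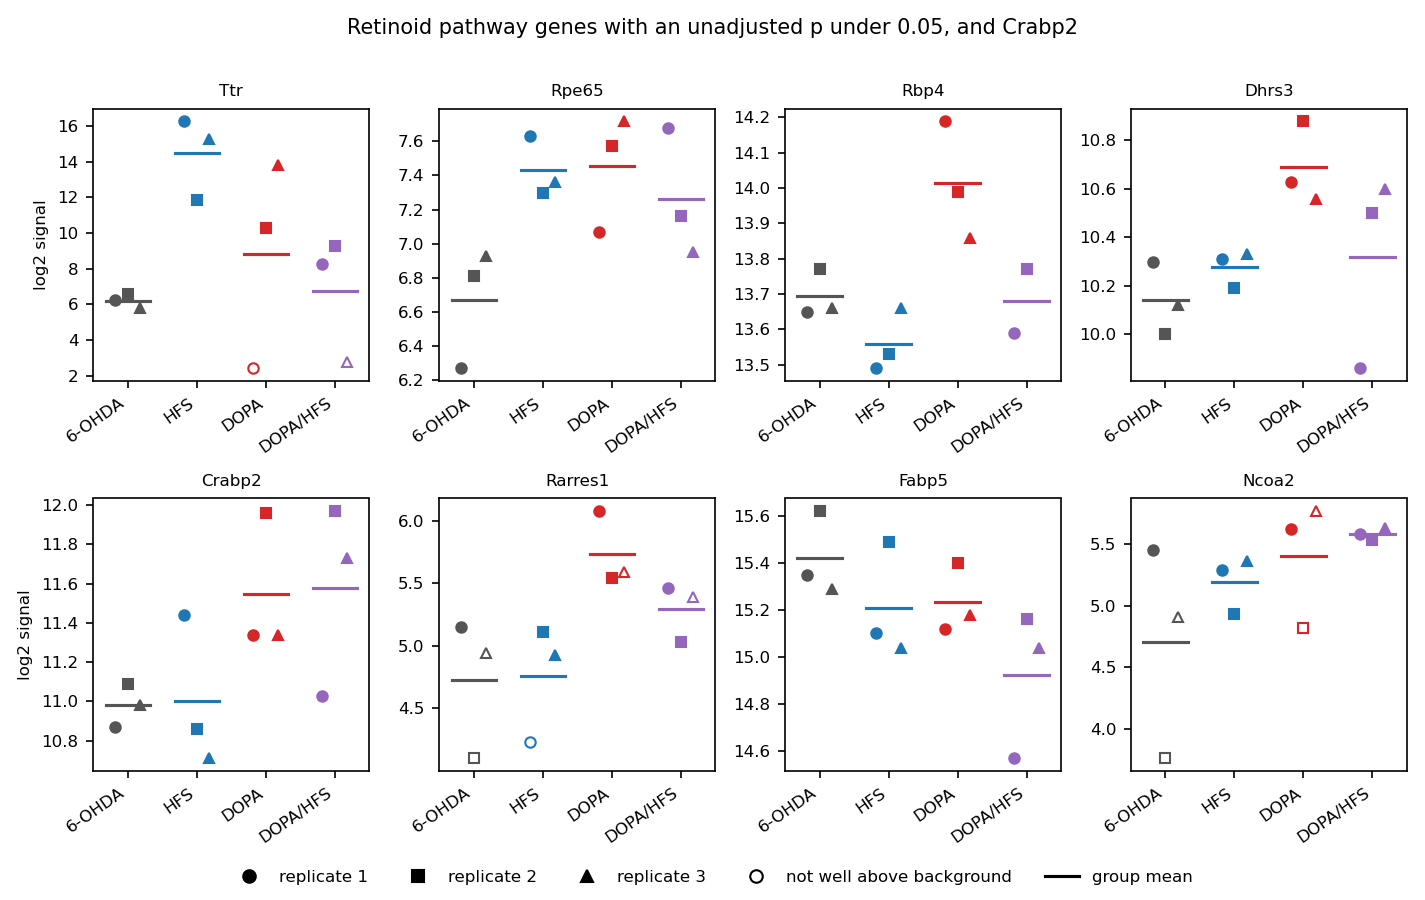
Log2 signal (vertical axes, each with its own range) of 8 genes of the retinoid pathway lists on 12 arrays in 4 groups, with replicates as marks, open marks where the probe was not above background, and group means as lines. The 7 other than Crabp2 are those with a limma unadjusted p under 0.05 in a treatment. Rpe65 is higher on all treated arrays (lowest 6.95) than on any 6-OHDA array (highest 6.93), and Ttr runs from 11.86 to 16.30 in HFS.

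Of the 12 tested genes known to respond to retinoic acid, the fold change was positive for 7 under HFS, for 9 under DOPA and for 9 under DOPA/HFS, and the medians on the log2 scale were 0.02, 0.19 and 0.16. The medians of all genes were 0.01, -0.01 and -0.01, and the share of all genes with a positive fold change was not counted. Dhrs3, Crabp2 and Rarres1 are among the 12, so these counts are not separate from the values given for them. Rarres1, a gene named for its response to retinoids, was at 5.15, 4.10 and 4.94 in the 6-OHDA group, 4.23, 5.11 and 4.93 in HFS, 6.08, 5.54 and 5.59 in DOPA, and 5.46, 5.03 and 5.39 in DOPA/HFS. Its difference was 1.01 in DOPA (SE 0.30, limma unadjusted p = 0.00707, adjusted p = 1), and over 6 arrays against 6 the L-DOPA rats exceeded the others by 0.77 (SE 0.22, exact permutation p = 0.00649, limma adjusted p = 1). The probe was dim and above background on 1 to 2 of the 3 arrays of each group, and with a normexp background correction the DOPA value was 0.24. Drd2, the dopamine D2 receptor gene whose promoter is a known RAR target, differed by 0.14, 0.15 and 0.05 (SE 0.31 each).

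Among the receptors that pair with RXR and the coregulators, 6 and 10 genes were tested. Thra, which encodes a thyroid hormone receptor, differed by 0.18, -0.09 and 0.15 (SE 0.32 each), and Nr4a1, an orphan receptor induced by neuronal activity, by 0.71, 0.52 and 0.01 (SE 0.46 each). Ncoa1, a coactivator, was lower on all DOPA arrays than on any 6-OHDA array, with a difference of -0.39 (SE 0.23, exact permutation p = 0.1). Ncoa2, also a coactivator, was higher on all DOPA/HFS arrays than on any 6-OHDA array, by 0.87 (SE 0.38, limma unadjusted p = 0.0399, adjusted p = 1). Its probe was above background on 1 of the 3 6-OHDA arrays, the difference was 0.40 without 6-OHDA replicate 2, and it was 0.14 in the log2 table deposited with the series.

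For each of the 7 genes tested, the genes whose log2 signal followed it most closely over the arrays were listed by Pearson r, as a description of these 12 arrays chosen as the highest of 18350 genes (20409 genes over 11 arrays for Rarg). Aldh1a1 was followed by AW143472 (r = 0.868), Apobec2 (0.856) and AI145607 (0.853). For Rxrg they were AW920949 (0.919), Pcsk2 (0.917) and Nudt12 (0.884), and for Rarb Derl1 (0.907) and RGD1565775 (0.905). The highest values were those of Rxra, with RGD1306286 (0.977), Rlbp1 (0.969) and RGD1561023 (0.963), where the low signal on 6-OHDA replicate 2 widens the range. Rxrb was followed by Hps6 (0.9), RGD1307554 (0.883) and Adcy7 (0.878), Crabp1 by TC523914 (0.939), TC534506 (0.929) and Ap2b1 (0.901), and Rarg by BF558262 (0.873), C18h18orf54 (0.869) and LOC683788 (0.865). All of these share the arrays and their normalization with the gene they follow.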

How the data were processed

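RNA from dorsal striatum punches (about 10 mg per rat, RNA integrity number above 8) was measured on 12 single-colour Agilent rat arrays. The intensity values are those the authors deposited as scanner output of Agilent Feature Extraction 9.1, background-subtracted on a linear scale and not normalized between arrays. The authors also deposited log2 values of the same arrays in a single table, quantile normalized per their methods, running from 5.604 to 16.98. It was used as an alternative. Groups and replicate numbers came from the sample labels.

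From 45018 spots per array, 1639 controls and the spots marked as outliers were left out. Processed signals were taken to log2, quantile normalized and averaged per probe (41012 probes), of which 10735 were named through RefSeq accessions and the others kept the name in the files. The filter kept probes above background on 5 or more arrays (a share of 0.4), and the brightest probe stood for a gene, which gave 20462 genes. All 12 arrays were fitted together with limma 3.58.1 in R 4.3.3 (data.table, version 1.17.8, jsonlite 2.0.0), with Benjamini-Hochberg adjustment over all genes and figures drawn with matplotlib 3.10.9. A gene was called where the adjusted p was below 0.1 and the fold lay outside 0.8 to 1.2 (for the interaction, the p alone). The SAM and Wilcoxon tests of the study's methods were replaced by limma. Probes outside the main fit were tested in a fit of every probe without the filter. Single genes were also given an exact two-sided permutation test over arrays. That 3 arrays form each group limits the precision of every value. On simulated data for HFS against 6-OHDA with 20462 genes, 50 genes were given each log2 change. The fit recovered 94% of them at a change of 2, 50% at 1, 44% at -1 and 2% at 0.5, and it called 10 unchanged genes. On the measured arrays the lowest limma adjusted p for HFS was 0.353 and 0 genes were called. The share of changes that the fit recovers on the measured arrays was not tested. Promoter windows were from RefSeq (GRCr8), and correlations of probe pairs used 100000 permutations.

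The genes, pathway lists, marker lists and tests were chosen with earlier results of these data known. The rule for naming took the 9 genes, all genes of the pathway and marker lists, and the 3 genes most correlated with each gene tested, of which 1 is not reported here. The comparison of DOPA with HFS, the alternatives for pathway genes and the checks of probe pairs were chosen after seeing the data. Alternatives were scaling to the 75th percentile, normexp with an offset of 50, the deposited table, no filter, detection on all 3 arrays of any group, probes averaged per gene, every probe on its own, the replicate block, only the arrays compared, outlier spots kept, an adjusted p under 0.05, no fold limit, and leaving out each array.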

Additional observations from a re-analysis of the deposited data

Results flagged for a closer look

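Aldh1a1 stood out because all 3 HFS arrays lay below and all 3 DOPA arrays above the 6-OHDA arrays. The difference between both effects was 0.49 on the log2 scale, DOPA minus HFS. It was tested as a contrast added after the values were seen and did not pass (limma unadjusted p = 0.0788, adjusted p = 0.984; exact permutation p = 0.1). Over 21 alternatives it ranged from 0.39 to 0.56.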

How the results depend on the processing

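No gene of the set was called under any alternative: all 141 recomputed counts, including those with the replicate block (0 in each comparison), were 0, and the lowest adjusted p of a gene was 0.551. Same-numbered arrays, which share a slide, correlated over 0.1 in 10 of 18 pairs (r from -0.287 to 0.476) and differently numbered ones in 7 of 36 (-0.447 to 0.543). Since not every same-numbered pair passed, the main fit has no slide term, although each slide held 1 array of each group. Its SEs and p-values therefore include any differences between slides, and the replicate block was fitted only as an alternative. Of 483 recomputed log2 fold changes of the 7 genes, 456 kept their sign and 27 changed it. In DOPA, Rxrb became -0.01 scaled to the 75th percentile, -0.08 with normexp and -0.09 in the deposited table. In DOPA/HFS, Rxrb became -0.01 in the deposited table and 0 with outlier spots kept, Rxrg -0.03 in the deposited table, Rarb -0.06 with the mean of both probes, and Rarg 0.60 with outlier spots kept. Except for the last, where the kept spot itself carries the value, the cause was not tested.

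Leaving out each array in turn, the HFS values ran from -0.05 to 0.20 for Rarb, -0.23 to 0.01 for Rarg, -0.14 to 0.02 for Rxrb and -0.04 to 0.21 for Crabp1. The DOPA values ran from -0.20 to 0.05 for Rarb, -0.17 to 0.10 for Rarg, -0.20 to 0.45 for Rxra, -0.06 to 0.05 for Rxrb and -0.17 to 0.08 for Crabp1. In DOPA/HFS they ran from -0.16 to 0.05 for Rarg, 0 to 0.20 for Rxrb, -0.22 to 0.04 for Crabp1 and -0.55 to 0.09 for Aldh1a1. The values of Rxrg in HFS and DOPA and of Aldh1a1 in HFS and DOPA kept their sign under all 22 alternatives, from 0.01 to 0.21, 0.23 to 0.35, -0.15 to -0.04 and 0.34 to 0.44. Normexp and the deposited table gave smaller differences for dim probes, for example 0.22 and 0.23 for Rxra in HFS. Signal near background limits Rara and Aldh1a2, and 3 arrays per group limit the other genes.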
